A study of Drosophila melanogaster with 18 samples.

Results

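Abl, Snoo, udd, luna, Fas2 and Rnf11 are 6 genes whose RNA rose together with retrotransposons when Piwi was depleted in Drosophila ovarian somatic cells (OSCs). They were chosen by symbol from the deposited table because they ranked 1 to 5 and 7 among genes in that comparison, and they make up 6 of 16982 features (genes, unmatched accessions and transposons) and 27 of 35327 transcript rows. The rise without Piwi is therefore the rule by which they were picked, and it is given here as a description. OSCs are a cultured line of somatic cells that descend from the follicle cells of fly ovaries. RNA was sequenced 2 days after RNA interference against piwi, mael or brm, and against EGFP as the control. Chromatin immunoprecipitation (ChIP) of Brm, Polybromo and Osa was done in cells depleted of Piwi and in cells with the EGFP control knockdown, also at 2 days. Brm and Polybromo shared an input library in each condition, and Osa had its own. Each group was 1 library of 1 cell line, so the differences have no check against replicates and carry no p-values.

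Piwi is a nuclear Argonaute protein that, guided by small piRNAs, silences LTR retrotransposons of the gypsy type at the level of transcription in follicle cells. Mael acts with Piwi in that silencing, and Brm is the motor subunit of SWI/SNF chromatin remodellers, of which Osa and Polybromo mark different forms. Annotated gene transcripts can hold stretches of transposon sequence, and reads from such stretches match more than a single place in the genome. The 6 genes have unrelated roles. Abl is a non-receptor tyrosine kinase of the actin cytoskeleton, Snoo is a Ski/Sno family cofactor of Smad proteins, luna is a Krüppel-like zinc finger factor, and udd is a factor of ribosomal RNA transcription. Fas2 is a cell adhesion molecule of the immunoglobulin superfamily, and Rnf11 encodes a RING finger protein. In Release 6 coordinates (dm6) Abl lies at 3L:16615866-16647882, Snoo at 2L:7891187-7984196, udd at 2R:8106385-8107373, luna at 2R:10977956-11116378, Rnf11 at 4:314923-331387 and Fas2 at X:4132887-4206093.

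The totals recovered from the values were 4865534 (Brm) to 9498401 (Mael) reads in the 4 RNA libraries. In the 10 ChIP and input libraries they were 475226 to 2779826. Values are RPKM as deposited, reads per kilobase of feature scaled to these totals. Listed rows held 99.999% of the total in RNA, but 29.7% to 38.7% in ChIP and input. RNA values are thus scaled to reads on listed rows, and ChIP and input values to a wider total. The targeted piwi gene was at 11.0 RPKM without Piwi, 57.7 without Mael and 21.3 without Brm, against 81.5 in the control, while mael was at 4.20 RPKM in its own knockdown, against 14.5, and brm at 0.54, against 6.66. The somatic marker tj was at 133, 85.9, 55.6 and 93.3 RPKM in the same libraries, while the germline marker vas was at 0 to 0.30 RPKM. Of 7 germline markers found, pgc alone reached 5 RPKM (114, 58.7, 35.3 and 71.8). Of the other somatic markers, hth was at 0 in the Piwi, Mael and Brm knockdowns and at 0.04 RPKM in the control. The summed level ran from 73.7 to 179 RPKM for 8 somatic markers, from 36.5 to 117 for the germline markers and from 3.04 to 5.79 for 8 markers of blood, glia, neurons, muscle and fat body. Most of the somatic sum was tj. Of the 8 somatic markers, 5 reached 5 RPKM in the Piwi, Mael and control libraries, but 1 did in the Brm library. On the log2(RPKM + 1) scale ptc (-1.44), Fas3 (-1.23) and pgc (-1.004) were past 2-fold lower without Brm. Relative to the median feature, ptc alone was. Whether these differences between libraries bear on the 6 genes was not tested.

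Abl, the gene with the largest difference, had 1117, 413 and 71.9 RPKM in the Piwi, Mael and Brm knockdowns, against 178 in the EGFP control. The library without Piwi was the highest of the 4 and the one without Brm the lowest. On the log2(RPKM + 1) scale, which understates the changes of low genes, the Piwi difference was 2.64. The 95% Clopper-Pearson interval of the fragment ratio, which covers counting error only, was 2.62 to 2.68. In bulk libraries such as these, more cells with a transcript and more of it per cell cannot be told apart. Snoo followed the same order, with 226, 74.4 and 17.3 RPKM in the Piwi, Mael and Brm knockdowns and 36.9 in the control, a Piwi difference of 2.58 (interval 2.53 to 2.71). udd was the most abundant per length, with 1602, 514 and 118 RPKM in the knockdowns and 284 in the control, a Piwi difference of 2.49 (2.41 to 2.58). luna had 85.4, 25.4 and 6.98 RPKM in the knockdowns and 16.4 in the control, a Piwi difference of 2.31 (2.27 to 2.52). In each of these 4 genes the level thus fell in the order Piwi, Mael, control and Brm.

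Rnf11 kept that order with a smaller Brm difference, while Fas2 departed from it in the Brm knockdown. Rnf11 had 41.9, 27.5 and 8.66 RPKM in the Piwi, Mael and Brm knockdowns and 11.7 in the control, and its Piwi difference was 1.76 (1.47 to 2.04). Its Brm difference of -0.39 had an interval of -0.91 to 0.04, so the Brm and control libraries could not be told apart at this depth. Fas2 had 19.8, 8.27 and 19.5 RPKM in the Piwi, Mael and Brm knockdowns, against 3.94 in the control, from 761, 339, 394 and 146 reads. It was high in both the Piwi and the Brm libraries, with differences of 2.07 (2.02 to 2.76) and 2.05 (1.92 to 2.72).

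**Figure D1:**
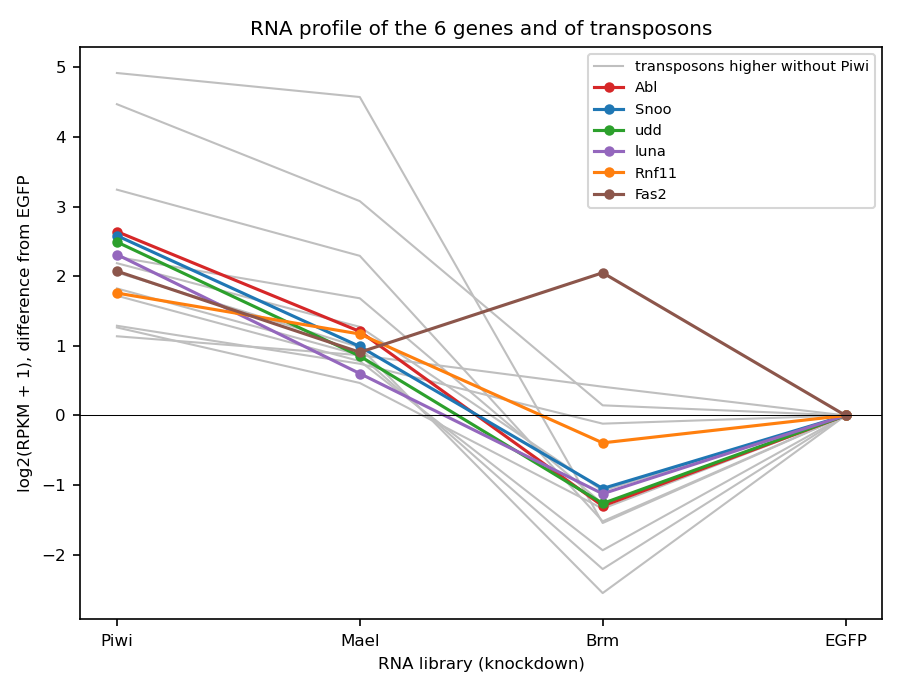
Difference from the EGFP library in log2(RPKM + 1) (vertical axis) for the 6 genes (colours) and the 11 transposons that passed the 2-fold rule without Piwi (grey), in the Piwi, Mael, Brm and EGFP libraries (horizontal axis; EGFP is 0 by definition). Abl, Snoo, udd and luna run close together, from 2.31 to 2.64 without Piwi and from -1.30 to -1.05 without Brm, Rnf11 is at -0.39 without Brm and Fas2 is at 2.05 there.

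A gene was tested at a mean of 5 RPKM or more over the libraries compared, and called at a 2-fold difference on the log2(RPKM + 1) scale. Without Piwi all 6 were called higher by the rule that chose them, where 1.18% of 5357 features were. The features nearest to that threshold were Rac2 (1.001, with 7.45 RPKM without Piwi and 3.22 in the control) and CG18336 (1.003) just inside, and mrj (0.995) and CG17744 (0.999) just outside. Without Mael, 2 of the 6 were called higher, Abl (1.21, interval 1.18 to 1.25) and Rnf11 (1.17, interval 0.85 to 1.45), beside 0.397% of 5291 features, and 0 were called lower, beside 0.416%. Snoo (0.99), Fas2 (0.91), udd (0.85) and luna (0.60) were under the threshold, each with an interval above 0 (lowest bound 0.48). The median feature of that comparison lay at -0.12. Relative to it Snoo (1.11) and Fas2 (1.03) passed too, which makes 4 of 6 higher beside 0.699% of features, and the calls over all features were then 37 higher and 16 lower (21 and 22 without that centring). The Mael and Piwi comparisons share the EGFP library, so a low EGFP value raises both. The Mael library held less piwi RNA than the control (57.7 against 81.5 RPKM), and its part in these values was not tested.

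Without Brm, 4 of the 6 were called lower on the values as given, beside 10.8% of 5083 features. They were Abl (-1.30, interval -1.39 to -1.26), udd (-1.26), luna (-1.12) and Snoo (-1.05). Fas2 was called higher, beside 1.99% of features. The median feature lay at -0.34 there, and relative to it 0 of the 6 were called lower, beside 4.11% of features, with Abl at -0.96 and udd at -0.93. The calls over all features were 196 higher and 209 lower with that centring (101 and 547 without it). Fas2 relative to the median was at 2.38, where 3.86% of features were called higher, and Rnf11 at -0.06. The Brm library also held less piwi RNA (21.3 against 81.5 RPKM), and the part of that in these values was not tested.

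Within genes with several annotated transcripts, a few rows carried nearly all reads. Of the 10 rows of Abl, NM_001104153 had 557, 206 and 33.9 RPKM in the Piwi, Mael and Brm knockdowns, against 89.5 in the control. NM_001300156 had 560, 206 and 36.8 RPKM in the same knockdowns, against 88.4 in the control. The ratio of the second row to the first was 0.987 to 1.08 in the RNA libraries and 0.960 to 1.11 over all 14 libraries, and reads that the isoforms share cannot be assigned to either. The other 8 rows of Abl stayed between 0 and 0.22 RPKM in all 4 RNA libraries and together held 18 reads without Piwi, against 17 in the control. Without Brm these 8 held 31 reads and summed to 1.18 RPKM, against 0.38 in the control. That is the opposite direction to the leading pair, but the Brm interval of each of these rows included 0. Outside that pair, a difference between the Piwi and control libraries was not detectable at this depth.

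Snoo and luna had the same layout with a single row each. Snoo NM_135320 had 225, 73.4 and 17.2 RPKM in the Piwi, Mael and Brm knockdowns, against 36.4 in the control, while its other 3 rows summed to 0.81, 1.03 and 0.14 RPKM in the knockdowns and 0.53 in the control. Among those 3, NM_001103646 had 49 and 56 reads in the Piwi and Mael knockdowns, against 22 in the control, with intervals of 0.04 to 2.31 and 0.22 to 2.42, and NM_001103647 had 0 reads without Piwi, against 6. NM_135320 took 99.7% of the gene's reads without Piwi, against 98.7% in the control. luna NM_001273950 had 85.0, 24.98 and 6.67 RPKM in the knockdowns and 16.1 in the control. The other 2 rows of luna held 10 reads together without Piwi, against 10 in the control. udd has 1 row, NM_136509, whose length of 989 bases equals the whole annotated span of the gene.

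Rnf11 showed a less extreme split. NM_166753 had 39.7, 26.2 and 7.47 RPKM in the Piwi, Mael and Brm knockdowns, against 9.92 in the control, and its Piwi difference was 1.90 (interval 1.69 to 2.33). The second row, NM_001272124, had 2.19, 1.35 and 1.19 RPKM in the knockdowns and 1.77 in the control, and the interval of its Piwi difference (-0.42 to 1.01) includes 0. The first row held 91.3% of the gene's reads without Piwi and 76.6% in the control. Among the 6 leading rows of these 5 genes, 3 were called higher without Mael (0.255% of 7071 transcript rows were) and 0 lower (0.438%). Without Brm 5 of the 6 were called lower (10.2% of 6688 rows were) and 0 higher (1.5%), but relative to the median row 1 of the 6, Abl NM_001104153, was called lower (3.9% of rows were). The Abl rows count as a pair here although they may share reads. Without Piwi, where the rule fixed the outcome, all 6 were higher, beside 0.913% of 7232 rows, and 0.429% of rows were lower.

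In Fas2 most reads lay on 2 rows, NM_001272308 (46.1% without Piwi, 43.8% in the control) and NM_167005 (36.8% and 28.1%). NM_001272308 had 8.001, 2.93 and 7.06 RPKM in the Piwi, Mael and Brm knockdowns and 1.46 in the control, and NM_167005 had 7.39, 4.06 and 6.81 RPKM in the knockdowns and 1.08 in the control. Both rows were thus high in the Piwi and Brm libraries, at 4.85 to 6.84 times the control. The other 5 rows had 0.68 to 1.12 RPKM without Piwi and 0.13 to 0.58 in the control, from 21 to 35 and from 4 to 17 reads. Among those 5, the Piwi intervals of NM_001297925 and NM_001272306 lay above 0. Those of NM_080327, NM_001297926 and NM_167004 included 0. No single Fas2 row reached a mean of 5 RPKM, so the gene passed the floor only as the sum of its 7 rows. With the mean over rows in place of the sum, its Piwi difference was 1.29.

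**Figure D2:**
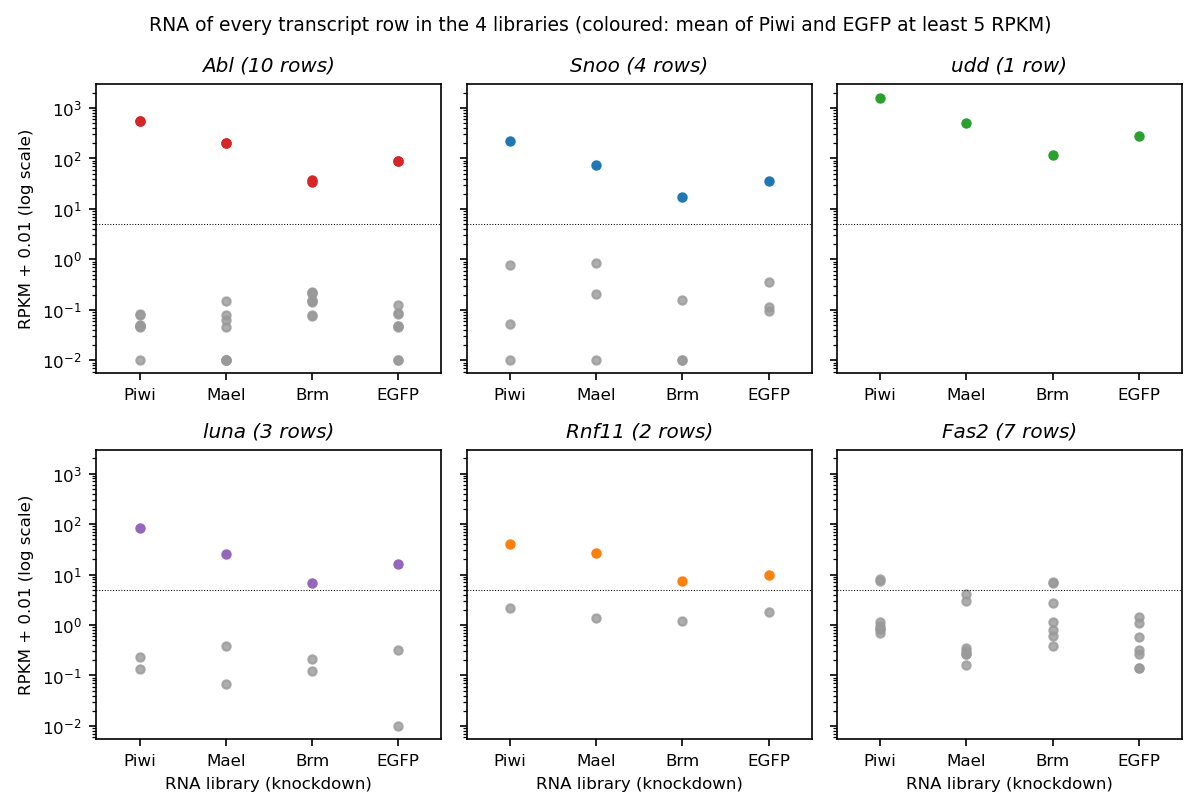
RPKM + 0.01 on a log axis (vertical) of each of the 27 transcript rows of the 6 genes in the Piwi, Mael, Brm and EGFP RNA libraries (horizontal), with rows that reached a mean of 5 RPKM over the Piwi and EGFP libraries in colour, others in grey, and 5 RPKM as a dotted line. In Abl, Snoo and luna the coloured rows lie at 6.67 RPKM or more and the grey rows at 0.83 or less, while the Fas2 rows overlap and none is coloured.

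The rows that carried the reads were the longest of their gene in 3 of the 4 cases with a choice. The lengths come from the values themselves, as the shortest that turns RPKM into whole reads. The leading rows of Abl were 12564 and 12510 bases long, against 2852 to 6310 for the other 8. The leading row of luna was 8446 bases, against 3036 and 3608. In Snoo the lengths were nearly alike, 7205 bases for the leading row and 5200 to 7130 for the others. In Rnf11 the leading row was the shorter one, with 2311 bases against 3965.

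The same rows stood out in DNA input, a readout that the choice of the genes did not use. Input counts sheared genomic DNA, so a row whose sequence occurs in several places can collect more reads than a unique one. How reads shared by isoforms were divided is not stated, so the input of a row may also depend on how many rows its gene has. The unit used here is the input RPKM of a row divided by the median of the transcript rows tested in RNA (2.89 RPKM in the control input of Brm and Polybromo). Abl NM_001300156 stood at 25.4 times that median in the Piwi knockdown input and 25.7 times in the control input of Brm and Polybromo, from 1028 and 1241 reads. Abl NM_001104153 stood at 26.4 and 23.3 times. udd stood at 27.2 and 21.0 times, Rnf11 NM_166753 at 8.82 and 7.52 times, and Snoo NM_135320 at 4.33 and 4.64 times. All of these lay above the 99th percentile of tested rows in both inputs.

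luna NM_001273950 had 3.25 times the median in the Piwi knockdown input and 2.15 times in the control input, at the 97.2nd and 86.3rd percentiles, so its input exceeded the median by less than that of the others. The 14 remaining rows of Abl, Snoo, luna and Rnf11 reached at most 1.40 times the median in the Piwi knockdown input and 1.44 times in the control. In each of these genes the leading rows were therefore above all other rows of the gene in these inputs. The 7 rows of Fas2 ran from 0 to 1.10 times the median without Piwi and from 0.23 to 1.35 times in the control, from at most 22 reads. The highest input among single Fas2 rows was thus close to the median transcript. The RNA call of Fas2 rests on the sum of its 7 rows, so it cannot be set directly beside these single-row inputs. Input summed over the rows of a gene was not examined.

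The Osa inputs gave another scale for the same rows. udd stood at 82.1 times the median in the Piwi knockdown input and 20.6 times in the control input. The Abl rows stood at 30.2 and 30.4 times without Piwi, against 7.24 and 7.42 in the control, and Snoo NM_135320 at 13.2 times, against 2.53. Rnf11 NM_166753 stood at 9.46 and 2.50 times, and luna NM_001273950 at 2.96 and 1.08 times, and its control value lay inside the range of the other luna rows (up to 1.39). The Osa input of the Piwi knockdown was the shallowest library, with 475226 reads, and its luna value rests on 40 reads.

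**Figure D3:**
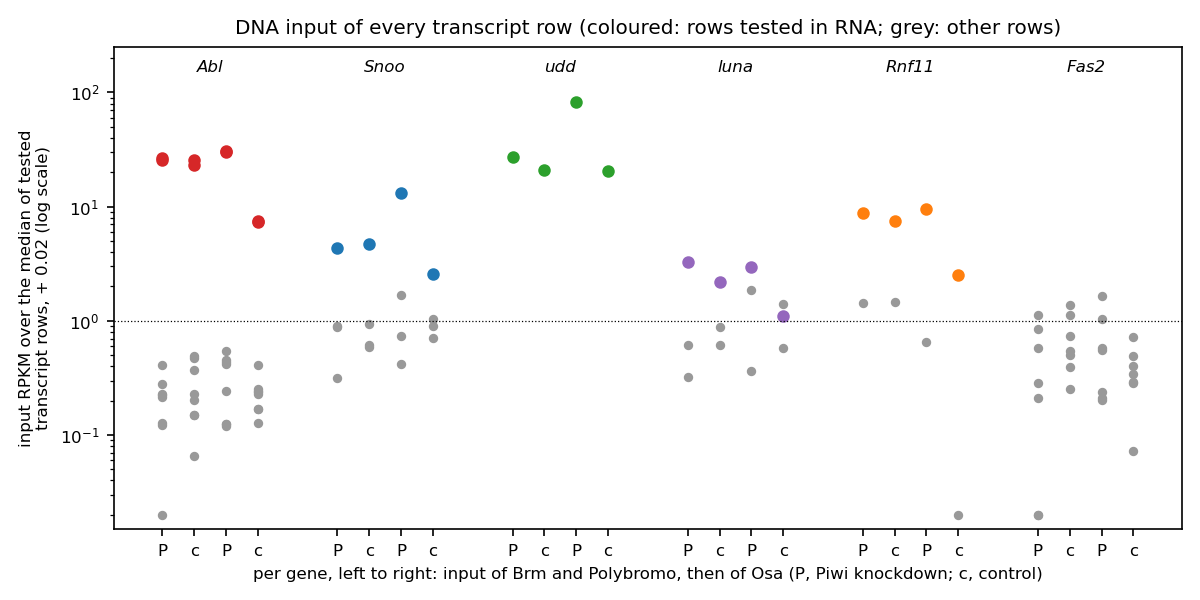
DNA input of each of the 27 transcript rows as a multiple of the median of tested rows, + 0.02, on a log axis (vertical), for the inputs of Brm and Polybromo and of Osa, each with the Piwi knockdown (P) left of the control (c), per gene (horizontal). Coloured rows carried the RNA reads and lie above the grey rows of their gene except for luna in the control Osa input, and the rows of Fas2 lie between 0 and 1.63.

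Across all tested transcript rows, a call without Piwi was more common where input was high. Of 33 rows with at least 5 times the median control input, 7 were called higher (21.2%), and 4 of the 7 belong to Abl (2 rows), udd and Rnf11. Without these, 3 of 29 rows were called (10.3%). Among rows at 2 to 5 times the median the share was 1.21% (14 of 1154, with Snoo and luna among the 14), and under 2 times it was 0.744% (45 of 6045). Over all 7232 tested rows it was 0.913%. The 6045 rows under 2 times came from 3323 genes and the 1154 rows at 2 to 5 times from 1144 genes. Genes with several tested rows were thus more common in the low class, and the part of that in these shares was not tested. Rows of a gene share reads and are not independent, these shares are a description, and the part of input in the RNA differences was not tested. The median Piwi difference was 0.17 among rows at 5 times or more and -0.04 among rows under 2 times. Most rows with high input were not called: Sec20 stood at 102 times the median with a Piwi difference of 0.44, and both isoQC rows stood at 28.5 and 28.9 times with 0.39.

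**Figure D4:**
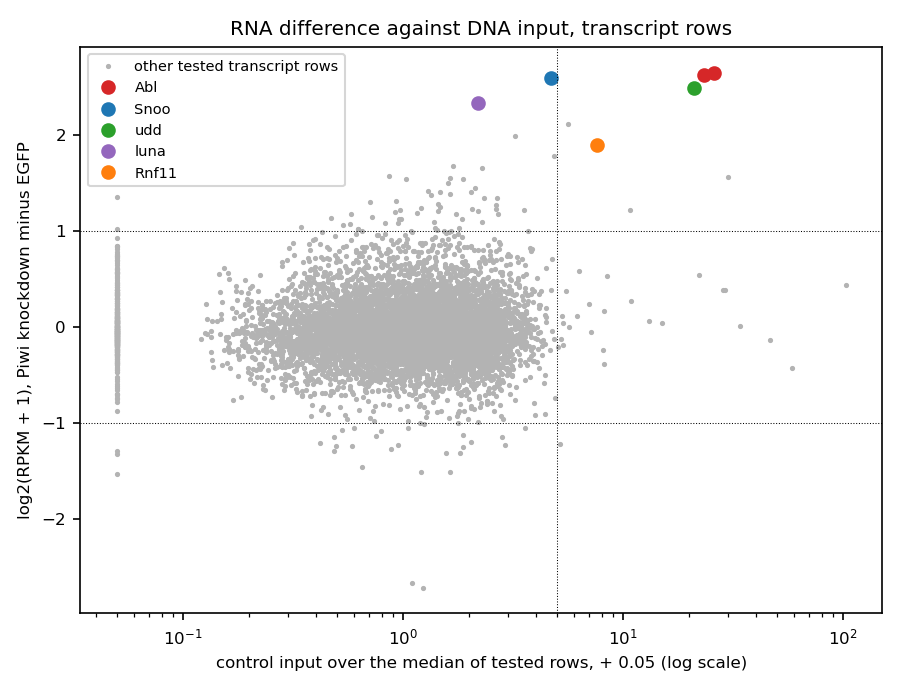
Difference between the Piwi knockdown and EGFP in log2(RPKM + 1) (vertical) against control input as a multiple of the median, + 0.05, on a log axis (horizontal), for the 7232 tested transcript rows (grey) and the 6 leading rows of Abl, Snoo, udd, luna and Rnf11 (colours). Dotted lines mark the 2-fold threshold and 5 times the median, and the coloured rows lie at 1.90 to 2.65 on the vertical axis, 4 of them beyond 5 times the median.

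Abl, Snoo, udd and luna matched each other more closely than almost any other feature matched them. Likeness was the Euclidean distance between log2(RPKM + 1) values over the 4 RNA libraries, each centred on its own mean, among 5202 features with a mean of at least 5 RPKM. The closest pair was Snoo and udd (0.16), followed by luna and udd (0.31), Abl and udd (0.31), Snoo and luna (0.31), and Abl and Snoo (0.34). For Abl and luna the distance was 0.60, with 3 features closer to Abl than luna was. The genes were chosen by their rise, which makes part of this likeness. Whether their rows also share reads was not tested, since the treatment of reads with several matches is not stated. Their read counts kept nearly fixed proportions: Snoo NM_135320 had 14559, 5021 and 603 reads in the Piwi, Mael and Brm knockdowns and 2357 in the control, while udd had 14208, 4829, 567 and 2525. The ratio of that Snoo row to udd thus ran from 0.93 to 1.06 over the RNA libraries, that of luna NM_001273950 to udd from 0.41 to 0.48, and that of Abl NM_001104153 to udd from 3.66 to 5.10.

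In the inputs the proportions were looser, with Snoo over udd at 0.89 to 1.61 and Abl NM_001104153 over udd at 4.46 to 14.1, from as few as 80 udd reads. Rnf11 lay farther from all of them, at distances of 1.01 (luna) to 1.27 (Abl), and Fas2 farthest, at 2.14 (Rnf11) to 3.18 (Abl). For Abl, 4610 of the 5202 features were closer to it than Fas2 was.

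Outside the 6 genes, the features nearest to Abl, Snoo and udd were transposons. The distances use the Piwi and EGFP libraries by which the genes were chosen as strong risers, which limits what could lie near them. This nearness is therefore given as a description. Dm297, an LTR element related to gypsy that FlyBase names by its number alone, was nearest to Abl (0.60) and to Snoo (0.78), with 397, 263 and 33.1 RPKM in the Piwi, Mael and Brm knockdowns and 81.1 in the control. Stalker2, another LTR element, was nearest to udd (0.69) and second nearest to Abl (0.67) and Snoo (0.78), with 80.1, 41.3 and 5.44 RPKM in the knockdowns and 23.6 in the control. For udd, Dm297 came second (0.80). For luna the nearest were the genes Pa1 (0.67) and CG12567 (0.75), at 128 and 18.3 RPKM without Piwi, against 39.9 and 6.11 in the control. For Rnf11 they were CG15047 (0.30) and CG5181 (0.31), which had differences of 1.41 and 1.38 without Piwi. The features nearest to Fas2 were lncRNA:CR43264 (0.81) and Alg14 (0.87), and lncRNA:CR43264 had 323, 110 and 495 RPKM in the Piwi, Mael and Brm knockdowns and 108 in the control.

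The 11 transposons called higher without Piwi spanned the range of the 6 genes. Their Piwi differences were 4.92 for mdg1, 4.47 for Quasimodo, 3.24 for Tabor, 2.28 for Dm297, 2.19 for Dm412, 2.05 for blood, 1.82 for gypsy, 1.72 for Stalker2, 1.29 for mdg3, 1.26 for Dm17.6 and 1.14 for mariner2. Of 14 elements listed as sensitive to Piwi, a list drawn up with these results known, 10 were tested without Piwi and all 10 passed. In the same list 4 of 9 tested were called higher without Mael, beside 0.397% of features. Without Brm 6 of 8 were called lower, beside 10.8% of features. Relative to the median feature these counts were 5 and 5. The list medians were 0.98 and -1.44, beside 0.95 and -1.09 for the 6 genes. Quasimodo (0.15), mdg3 (-0.12) and, outside the list, mariner2 (0.41) were not called without Brm. Transposon rows together held 19.9% of reads in the Brm library, against 11.96% in the control. The list therefore does not stand for transposons as a class. In the control input of Brm and Polybromo the 11 stood at 17.62 (mariner2) to 285 (gypsy) times the median of transcript rows. The rows of Abl and udd fall within that range, and those of Rnf11, Snoo and luna fall below it.

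Of 11 genes that flank the 6 and were found in the table, 6 were tested without Piwi. None of these 6 passed the 2-fold rule, beside 1.18% of features higher and 0.467% lower, so the count does not set them apart from other genes. Their differences ran from 0.00 (Cul4, a cullin gene whose near end lies 67 bases from udd) to 0.70 (Zip102B, a zinc transporter gene beside Rnf11). Mo25, 394 bases from Abl, had 22.02 RPKM in the Piwi knockdown and 21.4 in the control, and Baldspot on the other side had 58.0 and 50.4. GlcAT-I, 54 bases from Fas2, had 22.6 RPKM without Piwi and 19.5 in the control. CG43288, on the other side of Fas2, had 5.22 RPKM without Piwi and 1.95 in the control, under the floor of 5. The 3 genes found that overlap the 6 in position were under the floor, with PMCA, a calcium pump gene that overlaps Rnf11, at 2.92 RPKM without Piwi and 3.28 in the control. Whether counting used strand is not stated, so reads of overlapping genes cannot be told apart.

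Over 5 lists of pathway partners of the 6 genes, 0 of 41 list entries tested without Piwi were called, a share close to the 1.18% higher and 0.467% lower among all features. Of 13 partners of Abl in actin signalling, 10 were tested and 0 passed, with a median difference of -0.15 beside -0.04 over all features. The gene ena, whose product is a substrate of Abl that acts on actin filaments, was farthest at 0.64 (10.6 RPKM without Piwi, 6.42 in the control). Of 16 Dpp and activin genes, 8 were tested and 0 passed, with a median of 0.44 and the receptor gene sax at 0.73. Of 10 RNA polymerase I genes found, 9 were tested and 0 passed, with a median of -0.20 and Polr1E at -0.66. Of 9 Krüppel-like and related factors, 2 were tested and 0 passed, with cbt at -0.35. Of 15 septate junction and adhesion genes, 12 were tested and 0 passed, with a median of 0.02 and the claudin gene sinu at 0.48.

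In the Mael knockdown 0 genes of these lists passed in either direction. The farthest were fax (-0.47), babo (-0.39), Polr1D (-0.66), cbt (-0.49) and kune (-0.71). In the Brm knockdown, where Fas2 was higher, 6 of 11 tested adhesion genes were called lower and 0 higher, beside 10.8% of features lower, with a median of -1.23 beside -0.34 over all features. Relative to that median 4 of the 11 were called lower, without dlg1 and Fas3, beside 4.11% of features. The 6 were Atpalpha (-1.69), Fas1 (-1.63), Nrt (-1.49), Nrg (-1.43), dlg1 (-1.31) and Fas3 (-1.23). Nrt, which is also in the actin signalling list, was the 1 gene called among 9 tested there. In the other lists 0 passed, with Mad at -0.91, Polr1C at 0.54 and cbt at 0.98, which is past 2-fold relative to the median.

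In ChIP, the changes of Brm and Polybromo at the 6 leading rows, centred on the median of kept rows, were all above 0 and under 2-fold. Enrichment is log2 of ChIP over its own input, relative to the median of 17548 kept rows, and its change is Piwi knockdown minus control. Brm ChIP at udd was 164 RPKM in the Piwi knockdown (input 77.4) and 127 in the control (input 60.5), a change of 0.17 (normal interval of log read ratios -0.34 to 0.67). At Snoo NM_135320 it was 33.0 RPKM without Piwi and 21.6 in the control, a change of 0.87 (0.44 to 1.30). At Abl NM_001300156 it was 89.5 and 66.4 RPKM, a change of 0.62 (0.47 to 0.77). The changes at the 6 leading rows ran from 0.12 (Rnf11) to 0.87 (Snoo), all under 2-fold, while 16.7% of kept rows passed 2-fold upward and 17.7% downward. These changes lay at the 55.2nd (Rnf11) to 80.4th (Snoo) percentile of kept rows. For Polybromo the changes ran from 0.01 (luna) to 0.74 (Snoo, interval 0.26 to 1.22), with backgrounds of 19.3% upward and 18.9% downward. They lay at the 50.3rd (luna) to 74.9th (Snoo) percentile. Without centring, luna was at -0.08 for Polybromo and udd at 0.01 for Brm, so the sign of the smallest changes depends on centring. The shares of kept rows were not matched to the leading rows for read number, so the 2 cannot be compared directly. In the control, Brm enrichment ran from -0.04 (Abl NM_001300156) to 1.18 (udd), and 1 of the 6 rows was 2-fold over the median, beside 11.9% of kept rows. The intervals lay above 0 for both Abl rows and Snoo in Brm ChIP, and for Abl NM_001300156 (0.50, interval 0.32 to 0.67) and Snoo in Polybromo ChIP. Those of udd, luna and Rnf11 include 0 for both antibodies, as does that of Abl NM_001104153 for Polybromo. These intervals cover counting error only and not the spread between replicates, and the Abl rows may share reads.

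At the leading rows Osa ChIP was higher without Piwi than in the control, and so was its input. Abl NM_001104153 had 502 RPKM in Osa ChIP without Piwi and 81.4 in the control, with inputs of 102 and 35.3 RPKM. udd had 755 and 188 RPKM in ChIP, with inputs of 277 and 101. Snoo NM_135320 had 136 and 33.8 RPKM in ChIP, with inputs of 44.4 and 12.3. luna NM_001273950 had 57.8 and 15.3 RPKM in ChIP (inputs 9.97 and 5.25), and Rnf11 NM_166753 had 117 and 82.4 (inputs 31.9 and 12.2). At each leading row the Piwi knockdown value was thus above the control value, in ChIP by 1.42 to 6.16 times and in input by 1.90 to 3.61 times. The median ratio over tested rows was 1.01 in Osa ChIP and 0.61 in Osa input, and 14.4% of tested rows had an input ratio of at least 2.

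Divided by input and centred on the median, 5 of the 6 rows changed by less than 2-fold. In the control, Osa enrichment at the leading rows was 1.99 (udd) to 3.80 (Rnf11) above the median, and all 6 rows were 2-fold over it, beside 27.6% of kept rows. At the 11 transposons higher without Piwi it ran from 0.02 (mariner2) to 3.16 (Dm17.6), with a median of 2.09. At the leading rows the change without Piwi was 0.59 (interval 0.39 to 0.78) and 0.56 at the Abl rows, 0.50 at luna, 0.03 at udd, -0.33 at Snoo and -1.36 at Rnf11 (interval -2.13 to -0.60). Only Rnf11 of these passed 2-fold, downward, as 31.9% of kept rows did, while 33.3% passed upward. These shares too were not matched to the leading rows for read number. Without centring, the Abl rows (1.10 and 1.07) and luna (1.01) were past 2-fold upward and Rnf11 was at -0.85. Among the 11 transposons higher without Piwi, the Osa input ratio ran from 0.59 to 2.14 with a median of 1.46. Over the 24 other high-input rows that were not called higher and had a control value, its median was 1.48 and 8 had a ratio of at least 2. In the inputs of Brm and Polybromo the leading rows had ratios of 0.92 to 1.49, where the median was 0.98.

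**Figure D5:**
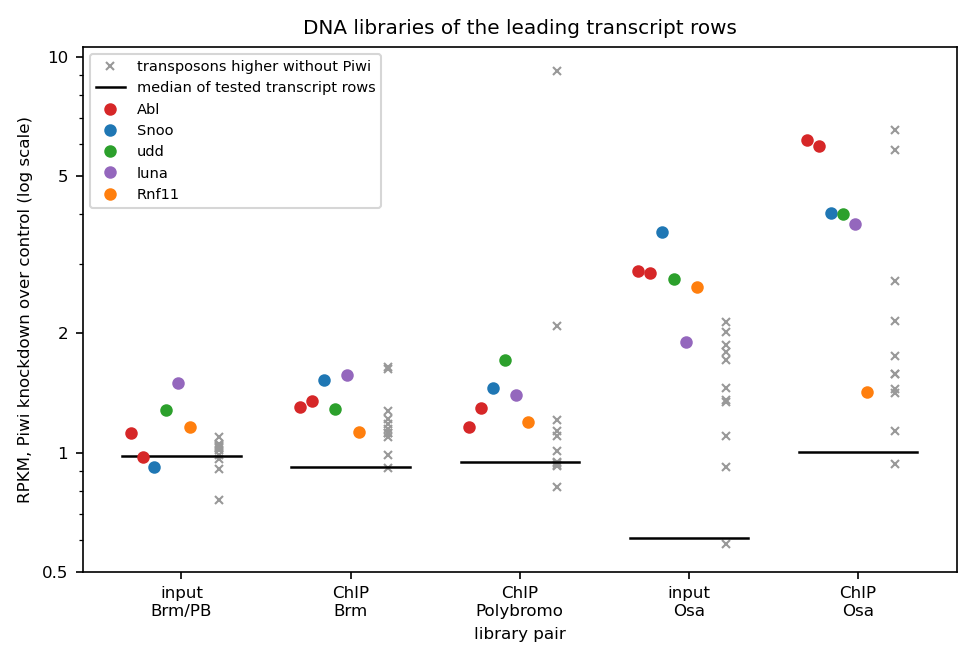
RPKM in the Piwi knockdown over RPKM in the control on a log axis (vertical) for the inputs and ChIP libraries (horizontal), at the 6 leading rows (colours) and at the 11 transposons higher without Piwi (crosses), with the median of tested transcript rows as a bar. At the leading rows the ratios run from 0.92 to 1.72 in the Brm and Polybromo libraries, from 1.90 to 3.61 in Osa input and from 1.42 to 6.16 in Osa ChIP.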

How the data were processed

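Values are RPKM deposited by the authors, per library, for RNA and for ChIP and input alike. The submitters' processing notes name Bowtie2 2.2.4 and dm6. How reads were counted, and what was done with reads that match several places, is not given in the sources used here. Among the RNA columns, 4 matched no sample and were not used. The 4 ovary samples were not analysed here. Accessions, without copy suffixes, were matched to symbols with the RefSeq table of Release 6 (34887 rows matched, 440 did not), and RPKM of a gene's distinct rows were summed; reads shared by isoforms may count more than once. Library totals and feature lengths (20 to 80000 bases) were recovered as the numbers that turn RPKM into whole reads within 0.01. All values then came out whole, largely because lengths were chosen so. In the EGFP library 62.9% of features had even reads, so RNA intervals count 1 fragment per 2 reads. The ChIP pseudocount was the 5th percentile of input values above 0; rows were kept when mean input reached the median of all rows. ChIP intervals are 95% normal intervals that cover counting error only.

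The members, lists and thresholds were chosen with earlier results of these data known. Named are the 6 genes, 2 nearest features per gene, list genes past the rule or else the farthest, and transposons past the rule; Sec20 and isoQC and the genes flanking or overlapping the 6 were added after their values were seen. No sequence is shown, since none was in the files used. The third further row with high input is not reported here. Steps were tested on simulated reads. Python 3.11.15, numpy 2.4.6, pandas 2.3.3 and scipy 1.17.1 were used.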

Additional observations from a re-analysis of the deposited data

How the results depend on the processing

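No call of the 6 genes reversed under the settings run. Of 90 log2 differences under other settings (pseudocounts of 0.1 and 5 RPKM, median at 0, leading row, mean over rows), 71 stayed within counting error and 19 moved. The number called higher without Mael was 6 at 1.5-fold, 0 at 3-fold and 4 with the median at 0, against 2. The number called lower without Brm was 0 at 3-fold and 0 with the median at 0, against 4. Floors of 1 RPKM or none left these counts as they were. With the median at 0, a setting added here after seeing the data, 1 against 5 leading rows and 4 against 6 adhesion genes were called lower without Brm. Control input multiples moved with the Osa inputs, up with the Piwi knockdown one (udd at 82.1 against 21.0, Snoo at 13.2 against 4.64) and down with the control one (Abl NM_001104153 at 7.24 against 23.3, Rnf11 at 2.50 against 7.52). Without centring, Osa enrichment in the control was 0.90 to 2.71 at the leading rows, and the Osa change at the Abl rows was 1.10 and 1.07. No paired analysis was possible because each group held 1 library. The small read numbers of Fas2 and the shallow Osa input limit what could be detected. The cause of these shifts was not tested.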

Other observations

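Besides the rows of Abl, udd and Rnf11, 3 transcript rows with at least 5 times the median control input were called higher without Piwi. Of these, 2 are described here and were named after their values were seen. CG7564 NM_001300169 stood at 29.8 times the median and had 8.89, 5.43 and 0.71 RPKM in the Piwi, Mael and Brm knockdowns, against 2.35 in the control. The unnamed transcript NR_125084, copy 2, stood at 5.57 times and had 34.4, 16.3 and 0.95 RPKM in the knockdowns, against 7.17 in the control. Both were lowest in the Brm knockdown, as were the leading rows of Abl, Snoo, udd, luna and Rnf11. For the Rnf11 row the interval of the Brm difference (-0.96 to 0.12) includes 0.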
